A study of Chlamydomonas reinhardtii with 6 samples.

Results

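Fermentation in the green alga Chlamydomonas reinhardtii was followed through 8 genes, 7 enzyme genes and 1 transporter gene, among 13452 genes with a normalised read count in 6 libraries. The members were chosen by gene identifier: PFL1 (Cre01.g044800), a pyruvate-ferredoxin oxidoreductase gene (g1910), PDC3 (Cre03.g165700), an alcohol/acetaldehyde dehydrogenase gene (g18056), PTA1 (Cre17.g699000), PAT2 (Cre09.g396650), an acetate kinase gene (Cre09.g396700) and a formate/nitrite transporter gene (g4546). All 8 had a value in every library and all 8 passed the filter on low values. The choice was made with the response of these genes to UV-B already known, so their differences between the groups are given as a description, with standard errors and without p-values. The authors' deposited table of changed genes describes 7 of the members and places g18056 and PDC3 in a fermentation category. PAT2 is absent from that table, which lists changes above 2-fold, so its name comes from the choice of members and not from the deposited annotation.

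RNA came from stationary cultures of strain CC-125 (137c mt+), a wild type. After 4 days in deep petri dishes in TAP, a medium that supplies acetate, they stood under dim white tubes (3.6 µmol m-2 s-1) and near tubes for narrowband UV-B (0.07 mW/cm2). In the UV-B group, 3 cultures lay under a filter with its edge at 311 nm, which passed UV-B. In the no UV-B group, 3 cultures lay under a filter with its edge at 360 nm, which blocked it, so the groups also differ in light between these edges. All were sampled after 1 h, and the series describes the cultures as independent. Libraries held 7868534 to 11972794 reads in the genes of the table. The unit throughout is the authors' normalised read count, which is CPM-like. Log2 fold changes compare log2(value + 1) between the groups, and the added 1 shrinks the change of low values.

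When oxygen runs short, this alga keeps glycolysis going by passing pyruvate to fermentation. Pyruvate-formate lyase splits it into formate and acetyl-CoA, pyruvate-ferredoxin oxidoreductase makes acetyl-CoA and reduced ferredoxin, which can feed the hydrogenases, and pyruvate decarboxylase makes acetaldehyde. Acetyl-CoA then goes either to ethanol through alcohol/acetaldehyde dehydrogenase or to acetate through phosphate acetyltransferase and acetate kinase, the step that yields ATP. Only RNA was measured here, with no reading of oxygen, fermentation products or enzyme activity.

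All 8 genes were lower after 1 h of UV-B, and in none of them did the values of the groups overlap. Over all 13415 genes tested, limma called 29.6% lower with UV-B at an adjusted p under 0.05, and in 31.6% every UV-B library lay below every no UV-B library. Since the members were chosen on this contrast, nothing is read from their count of 8 beside these shares. Nor is anything read from the members' median and 8-fold counts below beside those of all genes. Each value is a share of the RNA of a whole culture, so fewer cells with a transcript and less of it per cell cannot be told apart. The size of the fall differed widely among the members. UV-B means ran from 6.89% of the no UV-B mean in the transporter gene g4546 to 66.4% in PAT2. The members' median log2 fold change was -2.71, against 0.00037 over all genes tested. A fall of at least 8-fold on this scale was found in 4 members, g4546, g1910, g18056 and the acetate kinase gene, beside 0.268% of all genes tested. That count depends on the pseudocount and was 0 with a pseudocount of 5, beside 0.0969% of all genes. It was 3 with an equal total per library, beside 0.238% of all genes. It was also 3 without no UV-B replicate 1, no UV-B replicate 2 or UV-B replicate 1, beside 0.258%, 0.251% and 0.227%. In each run that gave 3, the acetate kinase gene was the member that fell short of 8-fold.

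**Figure D1:**
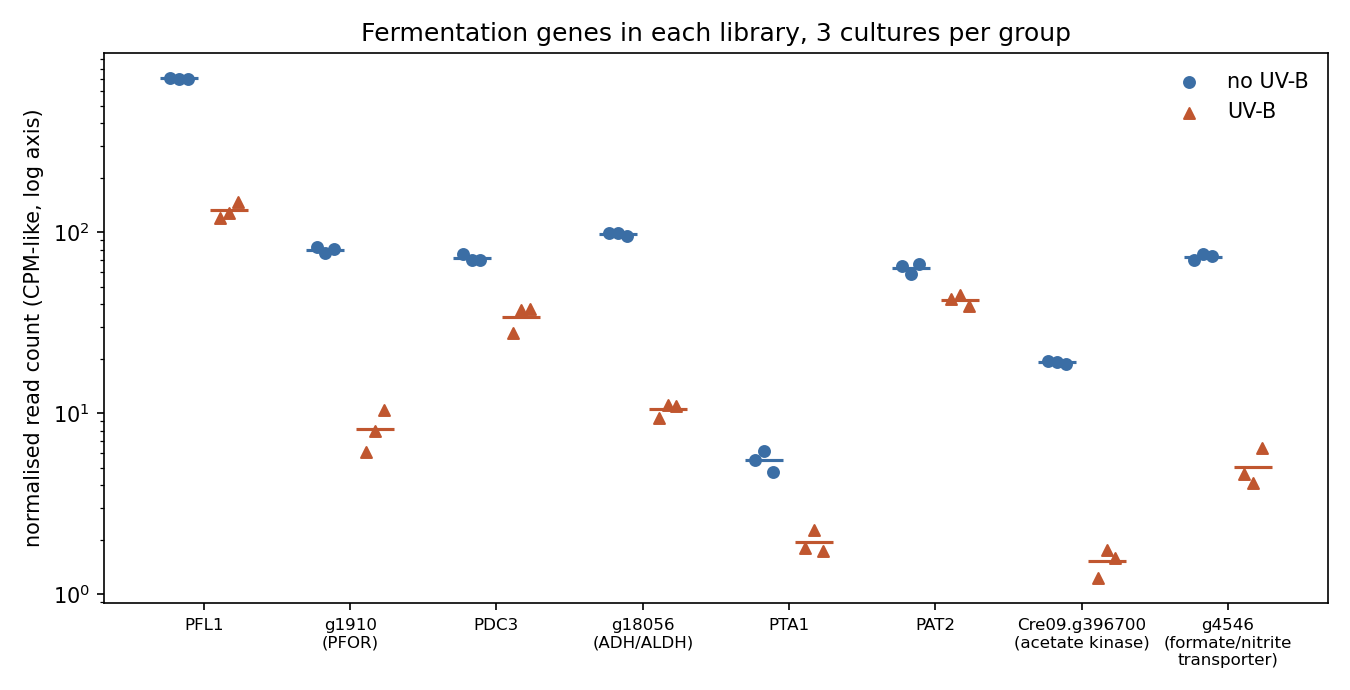
Normalised read counts (CPM-like, log axis) of the 8 genes in each library, with circles for the 3 no UV-B cultures, triangles for the 3 UV-B cultures and a bar at each group mean. Every triangle lies below every circle of the same gene, with the widest gaps in g4546 and the acetate kinase gene and the narrowest in PAT2.

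**Figure D2:**
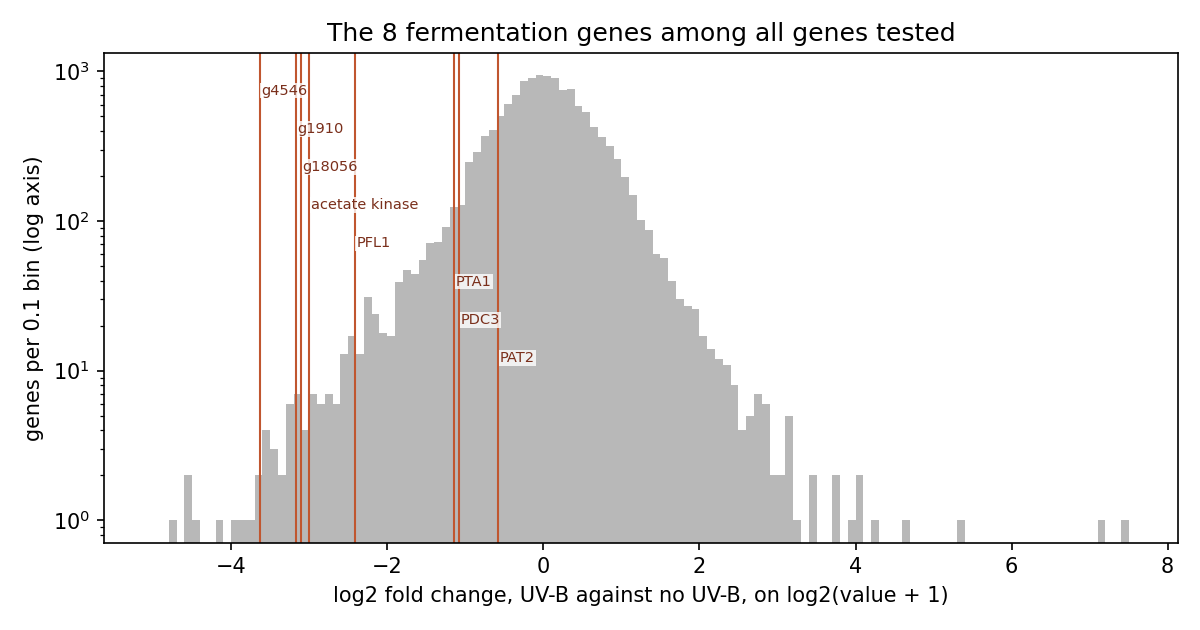
Histogram of log2 fold changes (UV-B against no UV-B, log2(value + 1) scale) of the 13415 genes tested, with the number of genes per bin on a log axis and a line for each of the 8 genes. The lines run from -3.64 for g4546 to -0.58 for PAT2, and 8 genes lie to the left of g4546.

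Among the enzymes that use pyruvate, PFL1 and g1910 fell steeply and PDC3 less so. PFL1 encodes pyruvate-formate lyase, a glycyl radical enzyme. Its normalised read counts were 711, 705 and 705 without UV-B and 120, 128 and 147 with it. The coefficient of variation (CV, the SD as a share of the mean) was 0.463% without UV-B, less than the 1.24% that read counting alone would give. It was 10.6% with UV-B, and all UV-B cultures still lay below the others. The group means were 707 ± 3.27 and 132 ± 14.0 (SD, n = 3), a 5.36-fold lower level and a log2 fold change of -2.42 ± 0.07 (SE). RefSeq places a further gene, Cre01.g044850, over part of PFL1. That gene had a log2 fold change of -0.21 ± 0.19 (limma adjusted p = 0.334), and no source used here says how reads in the shared stretch were assigned.

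The pyruvate-ferredoxin oxidoreductase gene g1910 had 82.4, 76.7 and 80.3 in cultures without UV-B and 6.13, 7.94 and 10.4 in those with it. The UV-B values differed by 1.69-fold between the lowest and the highest culture, the widest range of any member in that group, yet the highest lay 7.41-fold under the lowest no UV-B value. The means of 79.8 ± 2.89 and 8.14 ± 2.12 (SD, n = 3) give a 9.80-fold lower level and a log2 fold change of -3.17 ± 0.12 (SE).

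PDC3, a pyruvate decarboxylase gene, had 76.0, 69.9 and 70.5 without UV-B and 27.6, 36.9 and 37.4 with it. UV-B replicate 1 was the low culture, and the closest values of the groups differed by 1.87-fold. The means were 72.2 ± 3.35 and 34.0 ± 5.53 (SD, n = 3), a 2.12-fold lower level with a log2 fold change of -1.08 ± 0.09 (SE).

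The relation between these pyruvate genes shifted within each library, which no scaling between libraries can alter. PFL1 had 8.63, 9.19 and 8.79 times the normalised read count of g1910 without UV-B and 19.6, 16.2 and 14.2 times with it. PFL1 had 9.35, 10.1 and 10.0 times that of PDC3 without UV-B and 4.35, 3.47 and 3.94 times with it. So the formate-forming gene lost less than the ferredoxin-reducing gene and more than the acetaldehyde-forming gene in all 3 UV-B cultures. The ratios themselves depend on transcript length, which was not used here, and only their change between groups can be read.

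**Figure D3:**
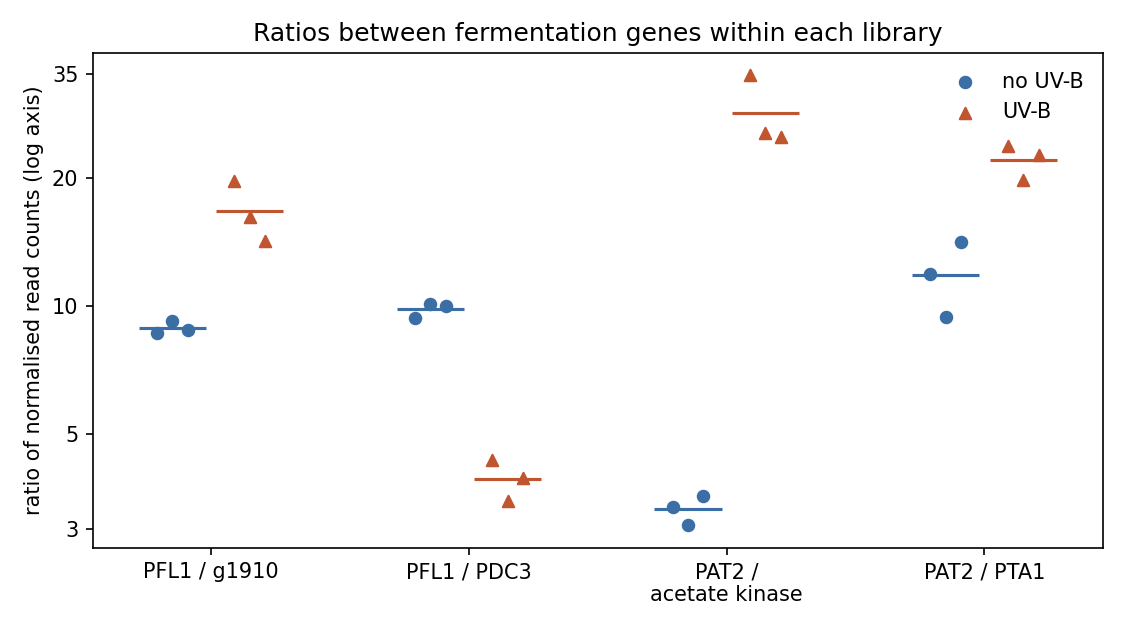
Ratios of normalised read counts between pairs of fermentation genes within each library (log axis), with circles for no UV-B, triangles for UV-B and bars at the group means. PFL1 over g1910, PAT2 over the acetate kinase gene and PAT2 over PTA1 are higher in every UV-B library, and PFL1 over PDC3 is lower in every UV-B library.

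On the way to ethanol, g18056 encodes the dual-function enzyme that reduces acetyl-CoA to acetaldehyde and on to ethanol. Its normalised read counts were 99.4, 99.2 and 95.2 without UV-B and 9.42, 11.1 and 11.0 with it. Both groups were tight, with CVs of 2.40% and 9.08%, near the 3.32% and 9.45% that read counting alone would give. The means of 97.9 ± 2.35 and 10.5 ± 0.956 (SD, n = 3) differ 9.30-fold, with a log2 fold change of -3.10 ± 0.09 (SE). Its fall was close in size to that of g1910, and PDC3, the other route to acetaldehyde, kept 47.1% of its no UV-B mean where g18056 kept 10.7%.

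The acetate branch was uneven. The acetate kinase gene, whose enzyme makes acetate and ATP from acetyl phosphate, had 19.4, 19.1 and 18.7 without UV-B and 1.23, 1.75 and 1.57 with UV-B. These rest on 177, 145 and 225 reads against 13, 17 and 19 reads. The no UV-B libraries lay close together, the UV-B libraries spread no more than read counting would give, and the closest values of the groups differed 10.7-fold. The means of 19.1 ± 0.353 and 1.52 ± 0.269 (SD, n = 3) differ 12.6-fold. For reads pooled over a group the decrease was 12.6-fold, with an exact 95% interval of 9.39 to 17.2 that covers counting error only. The log2 fold change was -3.0 ± 0.15 (SE) with a pseudocount of 1, and -1.89 with a pseudocount of 5.

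Phosphate acetyltransferase, which makes acetyl phosphate from acetyl-CoA, is represented by a pair of members that fell by different amounts. PTA1 had 5.48, 6.20 and 4.74 without UV-B and 1.79, 2.27 and 1.74 after it. It was thinly covered, with 50, 47 and 57 reads against 19, 22 and 21. The pooled reads were 2.80-fold lower with UV-B (exact 95% counting interval 2.07 to 3.82). Its log2 fold change was -1.14 ± 0.17 (SE), and -0.59 with a pseudocount of 5.

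PAT2 had 65.3, 58.5 and 66.9 without UV-B and 42.6, 44.8 and 39.3 with it. It changed least of the 8 members, and the closest values of the groups differed by 1.31-fold. The means of 63.5 ± 4.47 and 42.2 ± 2.77 (SD, n = 3) differ 1.51-fold, with a log2 fold change of -0.58 ± 0.08 (SE). RefSeq places another gene model, Cre09.g396694, over part of PAT2, and that model has no value in the table. Within libraries, PAT2 had 11.9, 9.43 and 14.1 times the value of PTA1 without UV-B and 23.8, 19.7 and 22.6 times with it. PAT2 over the acetate kinase gene went from 3.36, 3.06 and 3.57 to 34.8, 25.5 and 24.9. Reads of similar genes could have been split by the authors' counting, whose settings no source used here gives.

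The transporter gene g4546 had the largest fall of the 8. The formate/nitrite transporters are a family of membrane channels for small anions, and what the protein of g4546 carries was not measured. Its normalised read counts were 69.9, 75.9 and 73.8 in the controls and 4.62, 4.13 and 6.38 after UV-B. The lowest no UV-B value lay 11.0-fold above the highest UV-B value. The fall amounted to 14.5-fold in the means and to -3.64 ± 0.11 (SE) as a log2 fold change. Of all genes tested, 8 had a lower log2 fold change.

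Together the 8 genes had summed normalised read counts of 1128, 1110 and 1115 without UV-B and 213, 237 and 255 with it. In plain reads they took 0.104%, 0.107% and 0.112% of the reads in genes of the table without UV-B, and 0.0218%, 0.0241% and 0.0275% with it. PFL1 alone supplied 63.2% ± 0.253 of the sum without UV-B and 56.0% ± 1.85 with it (SD, n = 3), so the sum mainly follows PFL1. Without PFL1 the other 7 genes summed to 411 ± 6.22 and 103 ± 8.64.

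Relative to the mean, the UV-B cultures varied more than the no UV-B cultures in 7 of the 8 genes, PAT2 being the exception. In normalised read counts the SD was the smaller one under UV-B in 6 of the 8, since the levels were lower. The members' median CV was 3.89% without UV-B and 15.7% with it. Over all genes tested the median CVs were 10.3% and 10.6%, and 51.5% of genes had the larger CV under UV-B. Read counting would give CVs of 2.68%, 11.0%, 5.30% and 14.0% in PFL1, g1910, PDC3 and g4546 under UV-B, where 10.6%, 26.0%, 16.3% and 23.5% were found. In the acetate kinase gene, PTA1 and g18056 the UV-B spread did not exceed that of counting. PAT2 had a CV of 6.57% with UV-B, beside 4.70% from counting, and of 7.03% without UV-B, beside 4.16%. Without UV-B the CVs of PFL1, g1910, g18056, PTA1 and the acetate kinase gene lay below those of counting. Among the 869 genes called lower with a log2 fold change of -1 or below, 80.1% also had the larger CV under UV-B. Their median CVs were 7.14% without UV-B and 14.1% with it. Those genes were chosen for low levels under UV-B, where fewer reads raise the CV, so nothing is read from that share. The members too were chosen with their falls known, so nothing is read from their 7 of 8. UV-B replicate 1 had the lowest value in 5 of the 8 members and the highest in 0. Among those 869 genes UV-B replicate 1 was lowest in 45.9% and UV-B replicate 3 highest in 58.3%. Without UV-B replicate 1 the log2 fold changes of g1910 and PDC3 were -3.0 and -0.94, and without UV-B replicate 3 they were -3.34 and -1.15.

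Gene order gave a comparison that did not use the members' values. RefSeq's gene table placed 5 members on chromosomes 1, 3, 9 and 17, while g1910, g18056 and g4546 could not be placed there. It placed 73.8% of genes tested, so a nearest gene here is the nearest among those placed. Unplaced genes with a value may lie between. Of the 8 nearest genes with a value beside them that are not members, limma called 4 lower and 2 higher and did not call 2, where 59.0% of all genes tested were called, 29.6% lower and 29.5% higher. A log2 fold change of -1 or below was called in 1 of the 8, against 6.48% of all genes tested. It was the iron hydrogenase gene HYDA2 (Cre09.g396600). The genes on either side of PFL1 were Cre01.g044750, which rose from 8.24 ± 1.20 to 19.2 ± 1.03 (SD, n = 3, limma adjusted p = 3.5e-09), and Cre01.g044850 described above. Beside PDC3, Cre03.g165650 and Cre03.g165850 had log2 fold changes of -0.40 ± 0.10 and -0.83 ± 0.19 (limma adjusted p = 0.00158 and 0.000445). Beside PTA1, Cre17.g698950 rose from 0.639 ± 0.384 to 2.06 ± 0.367 (adjusted p = 0.000289), and Cre17.g699050 stood at -0.38 ± 0.18 (adjusted p = 0.0736).

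On chromosome 9 the acetate kinase gene, PAT2 and HYDA2 follow one another among the genes with a value that RefSeq's table placed. HYDA2, which encodes an enzyme that makes hydrogen gas with electrons from ferredoxin, went from 97.6 ± 4.96 to 28.0 ± 1.37 (SD, n = 3), a log2 fold change of -1.77 ± 0.08. PAT2 lies between them with the smaller log2 fold change of -0.58 given above. On the other side of the acetate kinase gene, Cre09.g396800 had a log2 fold change of -0.47 ± 0.08 (limma adjusted p = 8.14e-06). In the stretch of 11 placed genes with a value centred on PAT2, limma called 10 lower and 0 higher, with a median log2 fold change of -0.63. The 10 include the acetate kinase gene and PAT2, and 29.6% of all genes tested were called lower. The acetate kinase gene and HYDA2 had the largest falls in that stretch, and Cre09.g396500 was the 1 gene not called (0.26 ± 0.16, adjusted p = 0.171). The stretch was chosen because members lie in it, and no test was made of it as a whole.

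**Figure D4:**
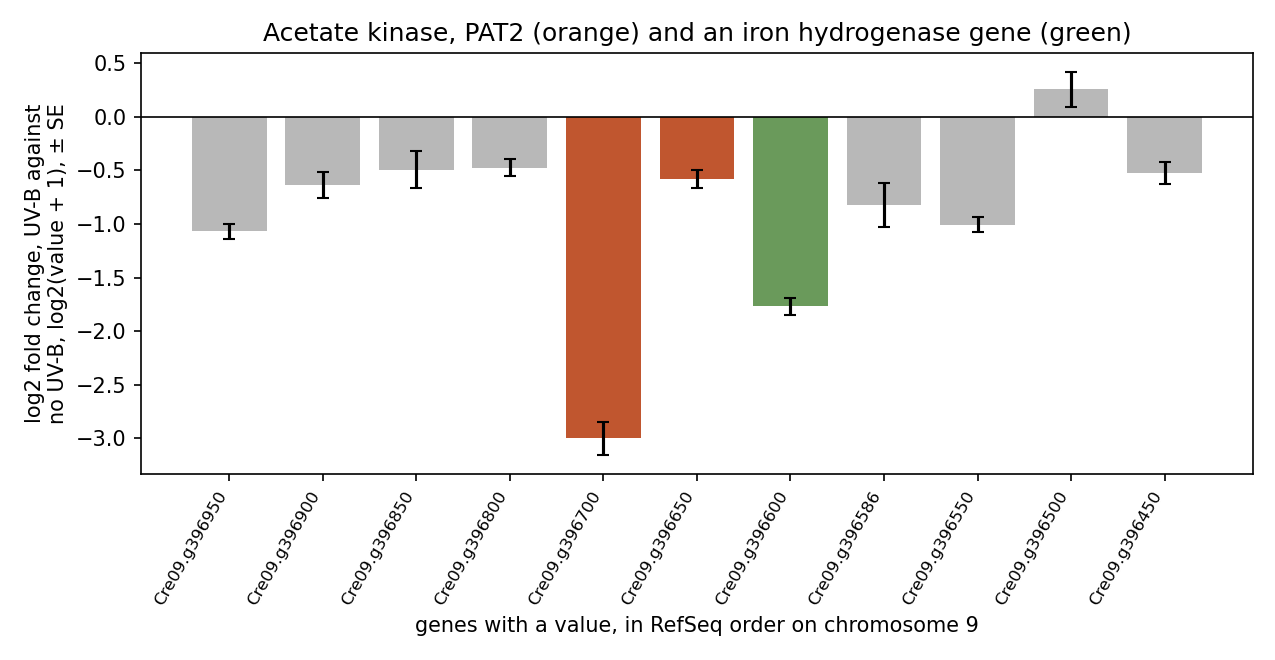
Log2 fold changes (UV-B against no UV-B, log2(value + 1), bars with SE) of 11 placed genes with a value in RefSeq order on chromosome 9, the 2 members in orange and the iron hydrogenase gene in green. The acetate kinase gene stands at -3.0 between neighbours at -0.47 and -0.58, and the hydrogenase gene at -1.77.

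Genes that lead to or from these reactions were sought by words in the authors' deposited table. They are therefore genes that table lists as changed, and their number called is no independent sign of a response. Among 19 such genes 13 were lower and 6 higher, beside 45.2% lower among the 1069 annotated genes of that table, and their median log2 fold change was -1.54 beside 0.87. The words for lactate and for formate enzymes matched 0 further genes each.

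All 4 genes matched by the words for pyruvate supply and malate were lower. A pyruvate kinase gene (g2906), which makes pyruvate at the end of glycolysis, went from 73.8 ± 1.41 to 11.6 ± 0.230 (SD, n = 3), a log2 fold change of -2.56 ± 0.09. A pyruvate phosphate dikinase gene (Cre10.g424750) went from 4.46 ± 0.262 to 0.324 ± 0.332. A NADP malic enzyme gene (Cre14.g629700), which makes pyruvate from malate, went from 88.1 ± 4.42 to 26.1 ± 0.970. A malate dehydrogenase gene (Cre10.g423250), which interconverts malate and oxaloacetate, went from 242 ± 9.11 to 119 ± 3.47. The 1 match for pyruvate dehydrogenase, which turns pyruvate into acetyl-CoA in respiring cells, was a gene of its E1 part (Cre06.g311050). Its level was 64.3 ± 2.52 without UV-B and 21.5 ± 1.07 with it, and its log2 fold change of -1.54 ± 0.08 lay between those of PFL1 and PDC3.

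Glycolysis genes went both ways, with 3 of 4 lower. The largest fall was in a glyceraldehyde 3-phosphate dehydrogenase gene (Cre12.g485150), from 310 ± 8.41 to 56.9 ± 9.92 (SD, n = 3). A phosphofructokinase gene (Cre06.g262900) went from 47.7 ± 1.71 to 22.8 ± 1.62. A pair of phosphoglycerate mutase genes moved apart, with Cre12.g527400 at a log2 fold change of -0.92 ± 0.21 and Cre10.g460300 at 2.77 ± 0.18 (1.62 with a pseudocount of 5). The 3 matches for aldehyde and alcohol dehydrogenases are categorised outside fermentation. Of them, Cre12.g500150, under betaine-aldehyde dehydrogenase, was lower at -2.02 ± 0.07. Higher were Cre01.g033350, in the same category, at 1.05 ± 0.13, and Cre12.g497700, under cinnamyl alcohol dehydrogenase and dihydroflavonols, at 1.19 ± 0.16.

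Hydrogenase and ferredoxin genes split by kind. The 2 iron hydrogenase genes and the 2 hydrogenase assembly genes were lower. Log2 fold changes were -4.54 ± 0.09 and -4.17 ± 0.11 in the assembly genes Cre06.g296700 and Cre06.g296750, and -2.64 ± 0.07 in the iron hydrogenase gene Cre03.g199800, beside the value above in HYDA2. The assembly genes thus had larger falls than any of the 8 members, and the hydrogenase Cre03.g199800 lay between g1910 and PFL1. Of the 3 that were higher, Cre03.g183850 and Cre07.g334800 are ferredoxin genes, at 1.21 ± 0.08 and 1.01 ± 0.07. The third, Cre09.g411200, encodes a Rieske domain protein matched through its category, at 1.95 ± 0.07.

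**Figure D5:**
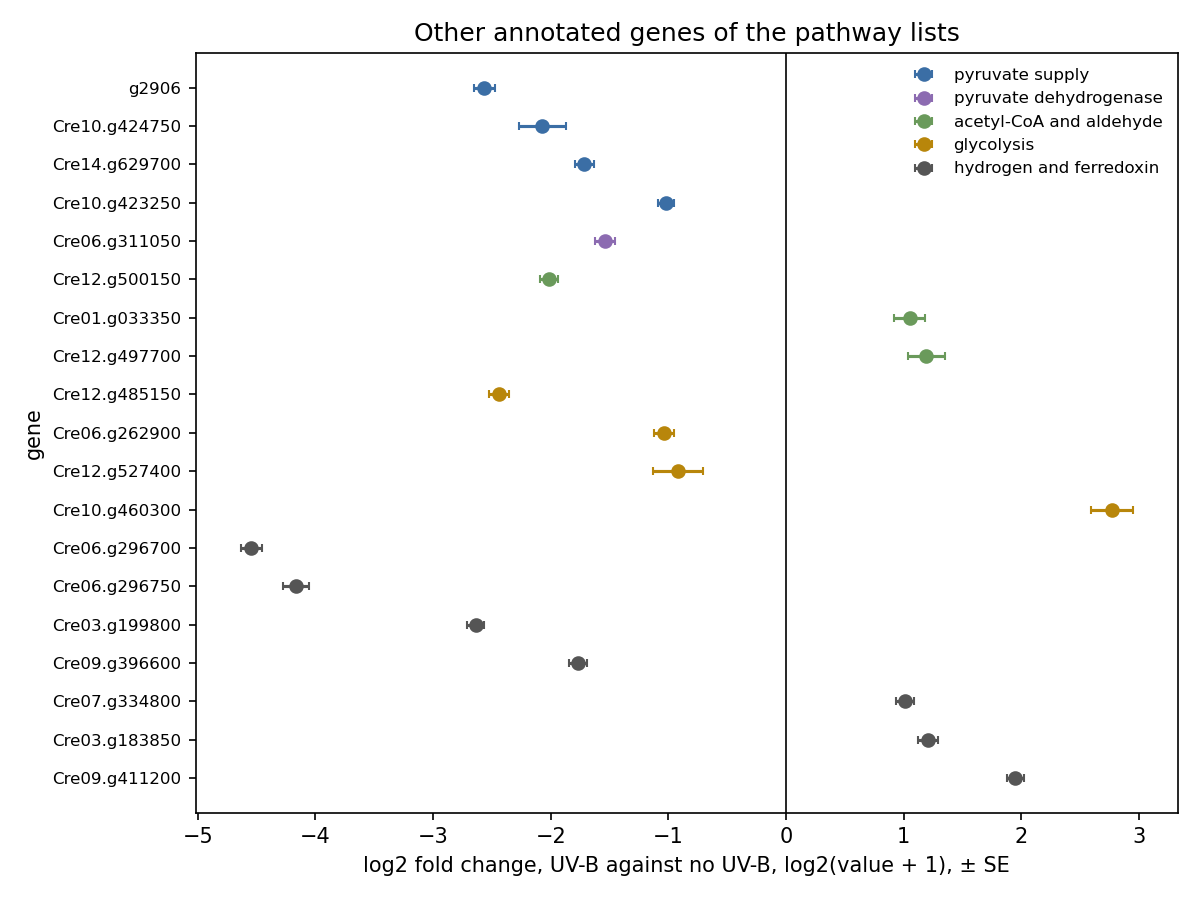
Log2 fold changes (UV-B against no UV-B, log2(value + 1), points with SE) of the 19 further pathway genes found in the authors' deposited table, coloured by list. The 4 pyruvate supply genes, the 2 iron hydrogenase genes and the 2 hydrogenase assembly genes lie left of 0, and the 3 ferredoxin and Rieske genes lie right of it.

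Profiles over the 6 libraries were compared with the mean profile of the 8 members, among annotated genes of the authors' table of changed genes only. These candidates were thus already known to respond to UV-B. The 5 nearest genes lay outside the lists used here. Nearness is the Euclidean distance between log2(value + 1) profiles centred on their means, so it mostly reflects the size of the group difference. The nearest were Cre06.g283400, categorised under sucrose phosphate phosphatase, at a distance of 0.0934, and a glutamate dehydrogenase gene (Cre05.g232150) at 0.113. Next came an iron-sulfur cluster assembly gene (Cre17.g710800) at 0.114, a threonine aldolase gene (Cre10.g423550) at 0.153 and a triose phosphate transporter gene (Cre08.g379350) at 0.157. PFL1 lay nearest among the members themselves, at 0.211, and PAT2 farthest, at 2.09.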

How the data were processed

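The deposited values are, per the file headers, a normalised signal for each of 13452 genes in 6 libraries, read counts relative to an effective library size. A further deposited table lists 2596 genes with the authors' log2 fold changes, p-values and annotation. Its annotation was used here. The further pathway genes and the genes nearest in profile were sought only among the changed genes it lists. TopHat2, HTSeq 0.5.3p9 and edgeR 3.4.2 are named in the submitters' processing notes. Genome build, gene models and strand setting: not given in the sources used here. Each column was matched to its sample by label, with 0 columns unused. Values were whole multiples of 1 read to within 0.01 reads in 100% of genes. No UV-B replicate 3 has no gene with exactly 1 read, and its step was found from the spacing of its values.

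Tests used limma 3.58.1 (R 4.3.3), with its variance prior following mean expression, on log2(value + 1). The 13415 genes reaching a value of 1 in 3 or more libraries entered, and the model compared 3 UV-B with 3 no UV-B libraries, with Benjamini-Hochberg adjustment and a threshold of 0.05. The model was also run on simulated reads in which far fewer genes changed than the 59.0% called here. That run does not show how the model performs with so wide a response. Alternatives used recovered reads with edgeR 4.0.16 and DESeq2 1.42.0, other pseudocounts, filters and scalings, a replicate block and each library left out. Counting precision follows a gene's own reads more than library size. In the acetate kinase gene counting alone would give a CV of 7.53% without UV-B and 25.1% with it. Genes outside the table are not analysed here.

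The members and lists were chosen with earlier results of these data known. The genes named were all 8 members, the nearest placed genes with a value, and up to 2 rises and 2 falls per list (all of lists of up to 4). Named too were the 5 genes nearest in profile among annotated genes of the authors' table. The rule leaves out 3 genes that are named too, chosen after their values were seen: Cre03.g199800 and Cre07.g334800, which complete the hydrogen and ferredoxin list, and Cre09.g396500. Words were matched in descriptions, categories and symbols, with short forms such as "pyruvate DH" counted. RefSeq's gene table (Chlamydomonas_reinhardtii_v5.5) matched 73.8% of genes tested and served only for gene order and overlap. Promoter and protein sequences were not used here.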

Additional observations from a re-analysis of the deposited data

How the results depend on the processing

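All 8 members were called lower under each alternative run, except that PTA1 was not tested with a minimum value of 5 in 3 libraries, which left 7. Of 670 comparisons of single named genes with an alternative, 668 kept direction and call, and in 2 Cre17.g699050 passed the threshold when no UV-B replicate 1 (-0.55) or UV-B replicate 1 (-0.55) was left out. Leaving out 1 library at a time gave 3456 to 3828 genes lower and 3504 to 3733 higher over all genes, 12 to 13 lower and 6 higher among the other pathway genes (12 where Cre10.g424750 no longer passed the filter), and 4 to 5 lower and 2 higher among the genes next to members. With a minimum value of 5, the genes next to members called higher numbered 1 in place of 2, because fewer genes were tested. An equal total per library shifted the median log2 fold change of all genes to 0.09 and gave 4538 higher and 3191 lower genes. The labels' replicate numbers pair nothing that the labels describe: deviations of same-numbered libraries correlated at 0.0446, 0.0244 and 0.120 across genes, and not every library correlated best with its own number. With the replicate block, 4082 genes were lower and 4020 higher against 3965 and 3955 without it, and the block changed no call among the members or named genes. The planned check of promoter letters was not run. Low reads limit PTA1 and the acetate kinase gene. With pseudocounts of 0.1 and 5 the log2 fold changes were -3.58 and -1.89 in the acetate kinase gene, -3.86 and -2.97 in g4546, -1.46 and -0.59 in PTA1, -3.85 and -0.83 in Cre10.g424750, and 1.65 and 0.32 in Cre17.g698950.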
